A study of Morella rubra with 12 samples.

Results

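The subject is a set of 371 assembled genes whose transcripts fell in each of the 2 ripening steps of a pale-fruited Chinese bayberry and stood at a similar low level in ripe fruits of a red cultivar. Chinese bayberry (Morella rubra) is an evergreen fruit tree. RNA sequencing was carried out on red fruits of the cultivar Dongkui (DK; its colour is labelled black), collected ripe at 85 days after flowering, and on fruits of the strain Baidongkui (BDK, pink-white in the title, pink in the colour label) collected at 55, 70 and 85 days. Each of the 4 groups has 3 libraries. The labels do not tell whether the 3 came from separate trees or harvests, whether fruits were pooled, or whether stones were removed, so spread between libraries may be technical.

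The members were selected on the deposited FPKM values themselves (FPKM is the number of fragments on a gene, divided by the gene's length and the library's size). For each group, 1 was added to the mean FPKM of its 3 libraries. A member had a sum of at least 26 in BDK at 55 days, a ratio of 70 to 55 days of at most 0.5, a ratio of 85 to 70 days of at most 0.5, and a ratio of ripe DK to ripe BDK above 0.5 and below 2. In each step every library of the later stage also had to lie below every library of the earlier stage. Of the 119701 genes listed, 6056 reached the level at 55 days, 423 of these met both step ratios, 401 also had libraries that did not overlap, and 371 met the DK bounds as well. All 4 groups thus entered the choice, so the falls and the likeness of DK to BDK described here are what the rule asked for. They are given as descriptions, and counts of members called in a fit across all genes are printed for these contrasts with nothing read from them.

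A fleshy fruit grows first by cell division and then by cell expansion, and ripens afterwards. In many young fruits the transcripts of cell division, photosynthesis, tannin synthesis and wall building are abundant and become scarcer towards ripeness, while those of pigment synthesis, sugar accumulation and softening become more abundant. In bayberry the edible part consists of juicy outgrowths of the fruit wall around a hard stone, and the red colour of ripe fruits comes from anthocyanins. The gene IDs are those of a transcript assembly and the files do not pair them with names, so which of these processes the members serve was not analysed here. In bulk fruit tissue, fewer cells of a type and less RNA per cell cannot be told apart.

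The libraries had a summed FPKM of 842518 to 922706 in DK, and in BDK of 1032999 to 1219278 at 55 days, 1005812 to 1032727 at 70 days and 817744 to 882385 at 85 days. The files hold no read counts, so depth is unknown. A split that is in no label crossed the groups: 876 genes were above 0 in the 3 BDK libraries of 55 days, replicate 1 of 70 days and replicates 1 and 2 of 85 days, and at 0 in the other 6 libraries, among them all 3 DK libraries. In the reverse direction there were 120 such genes. Within a set all members fell in each step by the rule's demand that libraries do not overlap. The rule also bounded the size of each fall over the same libraries, so the sizes are given as descriptions only. The median fall in the first step was 4.28-fold within the first set (1 library against 3), and in the second step 3.00-fold within the first set (2 libraries against 1) and 3.24-fold within the second (1 against 2). In log2 these are -2.10, -1.585 and -1.695, beside -0.08, -0.15 and -0.19 for all genes that entered the tests described below.

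The members started high and ended near the level of the median gene. Over the group means of all members the median was 4.78 FPKM in DK, and in BDK 75.2 FPKM at 55 days, 16.7 FPKM at 70 days and 4.61 FPKM at 85 days. For the 23074 genes that entered the tests it was 4.995 FPKM in DK, and in BDK 8.13, 6.45 and 5.11 FPKM at the 3 stages. By library, the members' median was 5.26, 5.02 and 4.70 FPKM in the 3 libraries of DK. In BDK it was 80.3, 75.2 and 74.3 FPKM at 55 days, 17.1, 15.6 and 16.6 FPKM at 70 days, and 4.01, 5.03 and 4.25 FPKM at 85 days. The libraries of ripe DK and ripe BDK thus overlapped in this median. Those of the 3 BDK stages did not, which the rule fixes. A mean under 10 FPKM was found for 262 members in DK, and in BDK for 0 at 55 days, 109 at 70 days and 273 at 85 days. Under 1 FPKM were 53 members in ripe DK and 60 in ripe BDK.

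**Figure D1:**
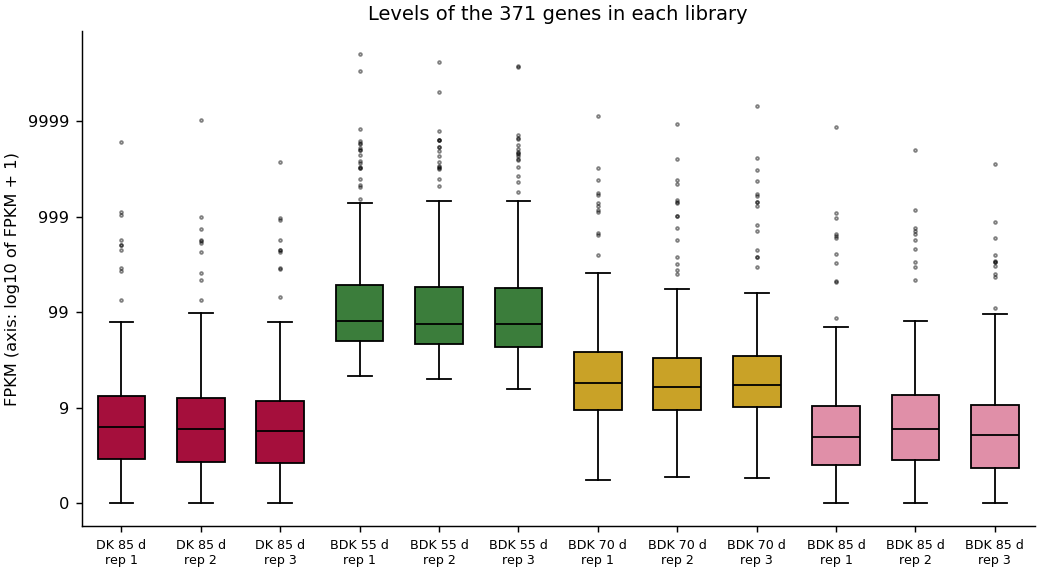
Box plots of the FPKM of the 371 members in each of the 12 libraries on a log10 axis of FPKM + 1 (box: quartiles, line: median, whiskers: up to 1.5 times the box, points: members beyond). The medians lie at 4.70 to 5.26 FPKM in DK and, in BDK, at 74.3 to 80.3 FPKM at 55 days, 15.6 to 17.1 FPKM at 70 days and 4.01 to 5.03 FPKM at 85 days.

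The first step was the larger for most members. From 55 to 70 days the median fall, on the scale of mean FPKM + 1, was 4.24-fold (quartiles 2.76 and 8.06), and from 70 to 85 days it was 2.94-fold (quartiles 2.35 and 3.94). The first step was the larger for 263 members and the second for 108, and for 159 members the 2 falls were within 1.5-fold of each other. A fall of at least 8-fold was made by 94 members in the first step and by 18 in the second. Both falls were at least 4-fold in 50 members. Over both steps together the fall ran from 4.16-fold to 1070-fold with a median of 13.9-fold, and 164 members fell at least 16-fold. The 1 added to each mean limits the fall of members that end near 0.

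**Figure D2:**
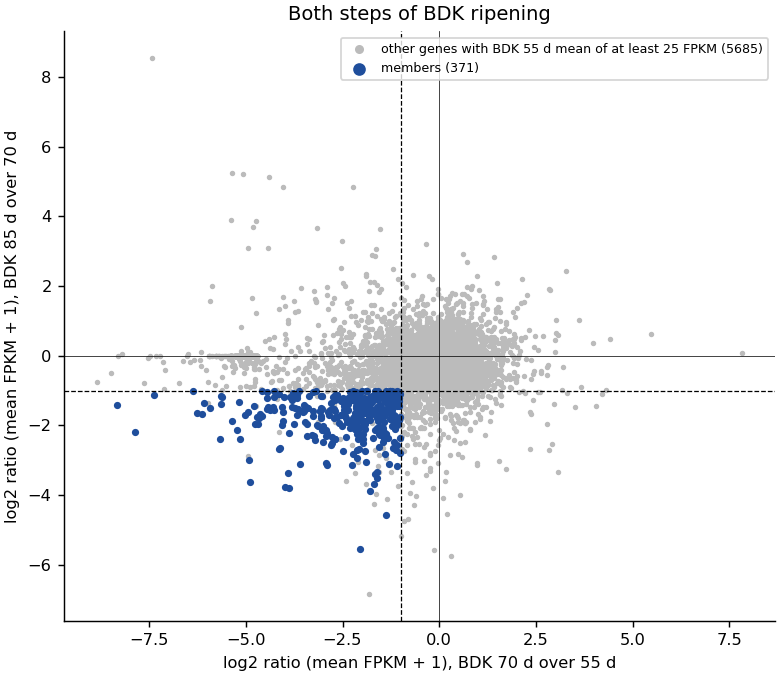
Log2 ratio of mean FPKM + 1 in the second step (y) against the first (x) for the 371 members and the 5685 other genes with at least 25 FPKM in BDK at 55 days. Dashed lines mark a ratio of 0.5. Members fill the lower left corner and reach further along the x axis, with 94 falls of at least 8-fold there and 18 along the y axis.

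The size of the fall is given by level in young fruits. The 105 members of 25 to 50 FPKM at 55 days had a median fall of 10.4-fold over both steps, the 119 of 50 to 100 FPKM 12.7-fold, the 123 of 100 to 1000 FPKM 23.3-fold, and the 24 above 1000 FPKM 32.1-fold. The difference lay mostly in the first step, with 3.77-, 4.19-, 6.43- and 8.12-fold over these classes, against 2.53-, 2.89-, 3.15- and 3.13-fold in the second. The level at 55 days sets the class and is also the base of the fall, so a member that is high there by error counts as higher and as falling further. The added 1 also takes more from the fall of the lower classes. The part of either in these values was not tested. Across the 371 members Spearman's rho between levels was 0.67 for 55 and 70 days and 0.91 for 70 and 85 days, where genes are not independent replicates and the rule bounds the ratios.

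In a fit of limma to the 23074 genes that reached 1 FPKM in 3 or more libraries, with trimmed-mean scaling, an adjusted p below 0.05 counts as called. All 371 members passed this filter. The fit called 368 of them lower at 70 than at 55 days, where 28.1% of all tested genes were called lower, and 362 lower at 85 than at 70 days, where 19.5% were. Both steps were called for 361 members, against 7.34% of tested genes. The rule used these contrasts, so nothing is read from these counts. On this log2 scale the members' median change was -2.04 in the first step and -1.42 in the second, beside -0.07 and -0.04 for all tested genes (-0.11 and -0.17 without scaling). The 3 members not called in the first step, named after their values were seen, are c17556_g1, c48124_g1 and c53215_g2. Gene c17556_g1 had 0, 20.7 and 75.4 FPKM in DK, so its libraries lay far apart there. In BDK it had 294, 220.1 and 338 FPKM at 55 days, 78.2, 79.4 and 85.0 FPKM at 70 days and 13.9, 32.4 and 45.3 FPKM at 85 days. It was also not called in the second step, and neither was c53215_g2.

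The members made up a large part of the young fruit's transcripts and a small part of the ripe fruit's. Their share of the summed FPKM was 1.56%, 2.15% and 1.37% in the 3 DK libraries. In BDK it was 20.1%, 18.0% and 16.0% at 55 days, 3.73%, 3.47% and 4.28% at 70 days and 1.87%, 1.66% and 1.18% at 85 days. DK averaged 1.69% ± 0.41, and BDK 18.0% ± 2.02 at 55 days, 3.83% ± 0.42 at 70 days and 1.57% ± 0.36 at 85 days (SD, n = 3 each). The libraries of ripe DK and ripe BDK overlapped. Those of the BDK stages did not, which the rule nearly fixes. Of the 74 genes in the files that averaged 1000 FPKM or more in BDK at 55 days, 24 (32.4%) were members. Of all genes with at least 25 FPKM there, 6.13% were. The level at 55 days is the base of the fall in the rule, so nothing is read from this difference. At 85 days 2 members averaged 1000 FPKM or more in DK and 1 in BDK.

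A few members carried most of this share. The 10 most abundant members of each group held 77.8% of the members' FPKM in DK, and in BDK 60.3% at 55 days, 71.5% at 70 days and 78.0% at 85 days. The most abundant of them, c35045_g1, alone held 46.3% in DK, and in BDK 22.0%, 30.1% and 43.2% over the 3 stages. Without it the share of the summed FPKM was 0.91% ± 0.01 in DK, and in BDK 14.0% ± 1.20 at 55 days, 2.68% ± 0.16 at 70 days and 0.90% ± 0.15 at 85 days (SD, n = 3).

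**Figure D3:**
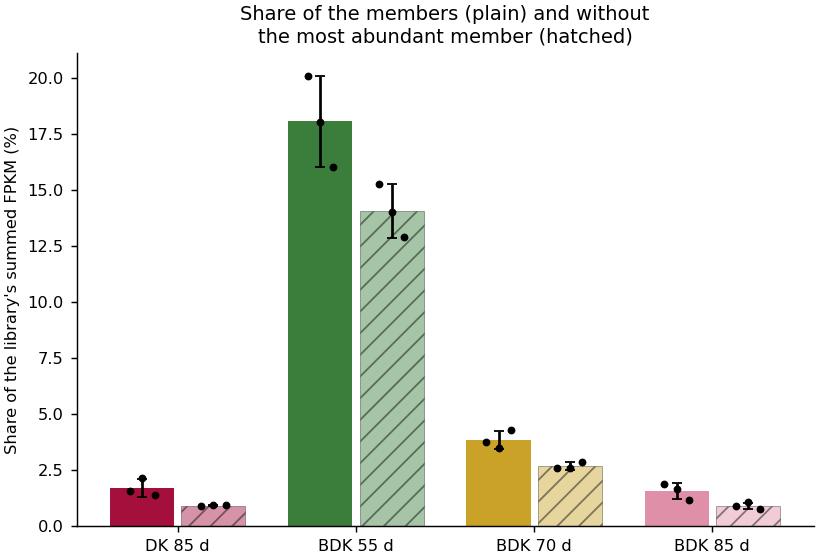
Share of each library's summed FPKM held by the 371 members (plain bars) and by the members without c35045_g1 (hatched bars), as mean and SD with the 3 libraries as points. The full share is 1.69% in DK and, in BDK, 18.0% at 55 days, 3.83% at 70 days and 1.57% at 85 days.

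Gene c35045_g1 ranked 2nd of all genes in BDK at 55 days and 13th at 85 days. It had 6140, 10476 and 3801 FPKM in DK. BDK held 51177, 41514 and 38354 FPKM at 55 days, 11421, 9292 and 14646 FPKM at 70 days, and 8713, 5051 and 3622 FPKM at 85 days. Within each ripe group its libraries differed more than 2-fold, those of ripe DK and ripe BDK overlapped, and its second fall, 2.03-fold, was not called by limma. It is the only gene of its assembly cluster, a group of assembled sequences whose IDs start alike.

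The other member of the top pair in young fruits was c48906_g2. It had 1117, 746 and 923 FPKM in DK. The BDK libraries had 33625, 20209 and 37109 FPKM at 55 days, 3239, 4053 and 4129 FPKM at 70 days, and 971, 761 and 874 FPKM at 85 days. It fell 7.96-fold and then 4.38-fold, and the libraries of ripe DK and ripe BDK overlapped. Its cluster holds 2 genes, which can share reads, so its level is uncertain.

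In ripe BDK the second most abundant member was c37924_g1, at 1038, 1010 and 978 FPKM in DK. Its BDK values were 6227, 6355 and 6720 FPKM at 55 days, 1695, 2221 and 2392 FPKM at 70 days, and 1112, 1171 and 606 FPKM at 85 days. The DK libraries lay within the BDK range, and replicate 3 of ripe BDK was the lowest of the 6. It fell 3.06-fold and then 2.18-fold.

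The deepest first falls took very abundant transcripts to means of 7.39 and 27.6 FPKM at 70 days. Gene c47732_g1 had 3.03, 5.47 and 5.80 FPKM in DK. BDK libraries had 2060, 1464 and 4634 FPKM at 55 days, 6.20, 5.17 and 10.8 FPKM at 70 days, and 3.43, 3.10 and 0 FPKM at 85 days, a first fall of 324-fold, or 210.3-fold without replicate 3 of 55 days. Nearly all of its fall was over by 70 days, and its second, 2.64-fold (1.73-fold with 5 added in place of 1), was not called. Gene c56883_g3 had 5.55, 2.58 and 2.45 FPKM in DK. Its values in BDK were 8325, 7865 and 3933 FPKM at 55 days, 31.7, 23.1 and 27.9 FPKM at 70 days, and 5.09, 5.27 and 5.45 FPKM at 85 days. Its falls were 235-fold and 4.55-fold, and its cluster has 4 genes.

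The deepest second falls ended at 0 or at a few FPKM. Gene c53284_g1 was listed at 0 in all 3 libraries of ripe DK and in all 3 of ripe BDK. In BDK it had 201, 203 and 180.1 FPKM at 55 days and 51.5, 68.8 and 17.4 FPKM at 70 days, where replicate 3 was far below the other libraries. Its ratio to the stage before depends on the added 1, so no fold is given. Gene c57297_g4 had 9.46, 7.53 and 6.27 FPKM in DK. In BDK it had 320, 272 and 443 FPKM at 55 days, 139, 118 and 144 FPKM at 70 days, and 4.24, 4.95 and 4.74 FPKM at 85 days. It fell 2.58-fold and then 23.8-fold (14.3-fold with 5 added in place of 1), and all DK libraries lay above all ripe BDK libraries. Its cluster holds 6 genes, so its level is uncertain.

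**Figure D4:**
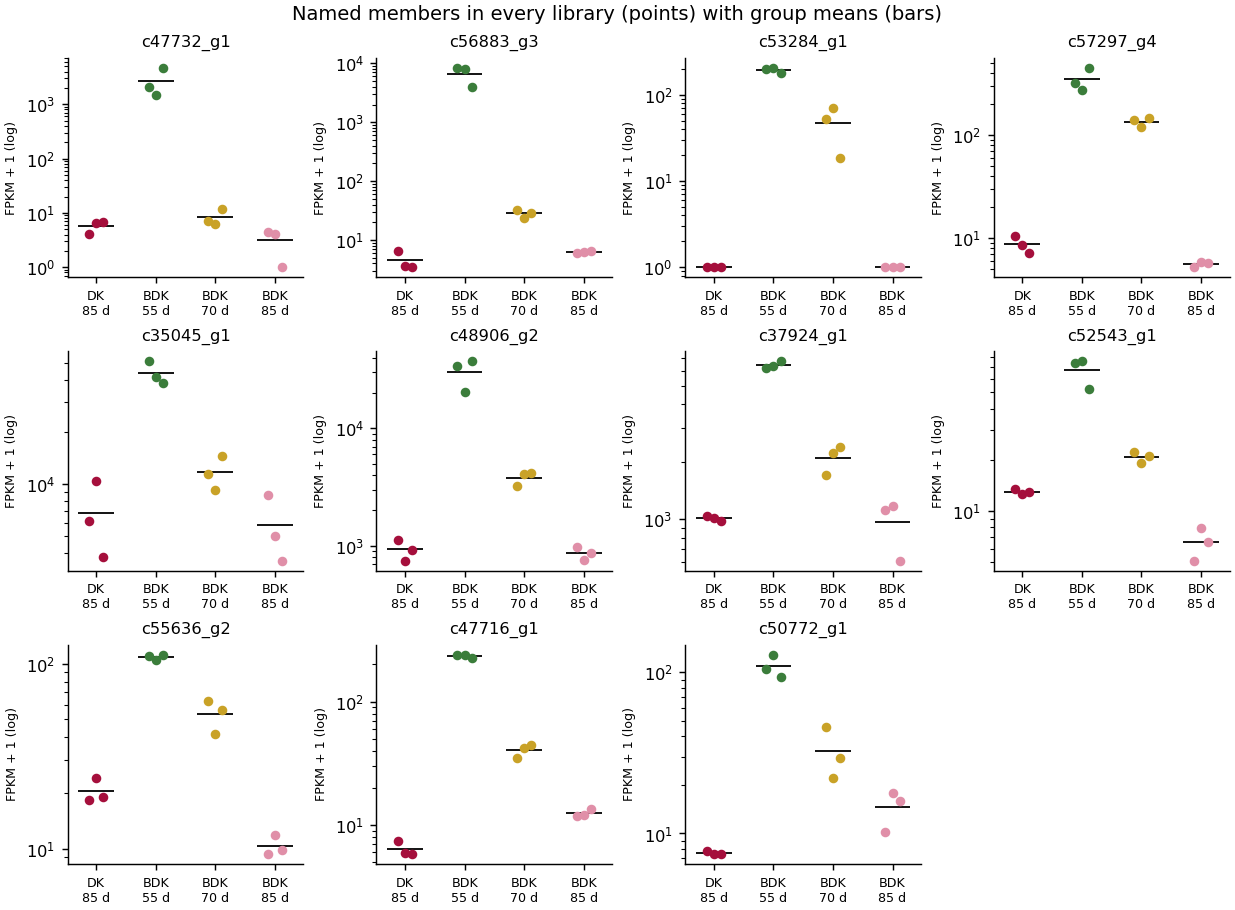
FPKM + 1 on a log axis for 11 members chosen by their ratios and levels, each library as a point and each group mean as a bar, with DK on the left and the 3 BDK stages to its right. Most of the fall of c47732_g1 (2719 FPKM at 55 days and 7.39 at 70 days) lies in the first step, and most of that of c57297_g4 (133 FPKM at 70 days and 4.64 at 85 days) in the second.

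Few members were listed at 0 in a whole group. In ripe DK 2 members were listed at 0 in all 3 libraries, c43409_g1 and c53284_g1, and in ripe BDK the same 2 and also c11130_g1 and c93765_g1 (named after their values were seen). In DK c11130_g1 had 0.23, 0.48 and 0 FPKM, and in BDK it had 29.1, 38.8 and 30.2 FPKM at 55 days and 1.31, 1.18 and 1.69 FPKM at 70 days. A value of 0 in at least 1 library was found for 15 members in DK and 11 in ripe BDK. In BDK at 55 or 70 days the rule allows none, as each library there had to lie above all those of 85 days. A value of 0 can also be a failed estimate, so these members are only listed at 0.

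Ripe DK and ripe BDK were bounded to a ratio between 0.5 and 2, and within these bounds DK was the higher more often. The mean was above that of BDK in 226 members (60.9%), below it in 143 and equal in 2, beside 49.3% above and 48.3% below among all tested genes. The median log2 difference of the means, DK minus BDK on mean FPKM + 1, was 0.10, beside 0 for all tested genes, 0.29 for the 317 genes with a fall of this size in the second step alone and -0.04 for the 711 with one in the first step alone. Within 1.25-fold of each other were the means of 221 members (59.6%), beside 63.1% of all tested genes. The members' choice required low BDK values at 85 days, and the same BDK libraries stand in this ratio, so the tilt is given as a description.

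All 3 DK libraries lay above all 3 ripe BDK libraries for 69 members (18.6%), where 12.2% of tested genes did, and below them for 33 (8.89%), where 12% did. Limma called 25 members higher in DK (6.74%), beside 3.53% of tested genes, and 7 lower (1.89%), beside 3.05%. The rule bounded this contrast, and nothing is read from these counts. They also moved with single libraries, from 32 called in all to 20 without ripe BDK replicate 1, 56 without ripe BDK replicate 2, 16 without DK replicate 1 and 10 without DK replicate 2. The calls over all tested genes moved too, from 815 higher and 704 lower in DK. They became 411 and 363 without ripe BDK replicate 1, and 1123 and 995 without ripe BDK replicate 2. Without DK replicate 1 they were 382 and 298, and without DK replicate 2 they were 379 and 276. The median log2 difference was 0.21 without ripe BDK replicate 2, and against ripe BDK replicate 3 alone, the only ripe BDK library of the set that holds the DK libraries, it was 0.23, with 253 members higher in DK and 116 lower. For all tested genes the median against that library was 0.03. Replicate 3 is also the ripe BDK library with the lowest share of the members in its summed FPKM (1.18%).

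**Figure D5:**
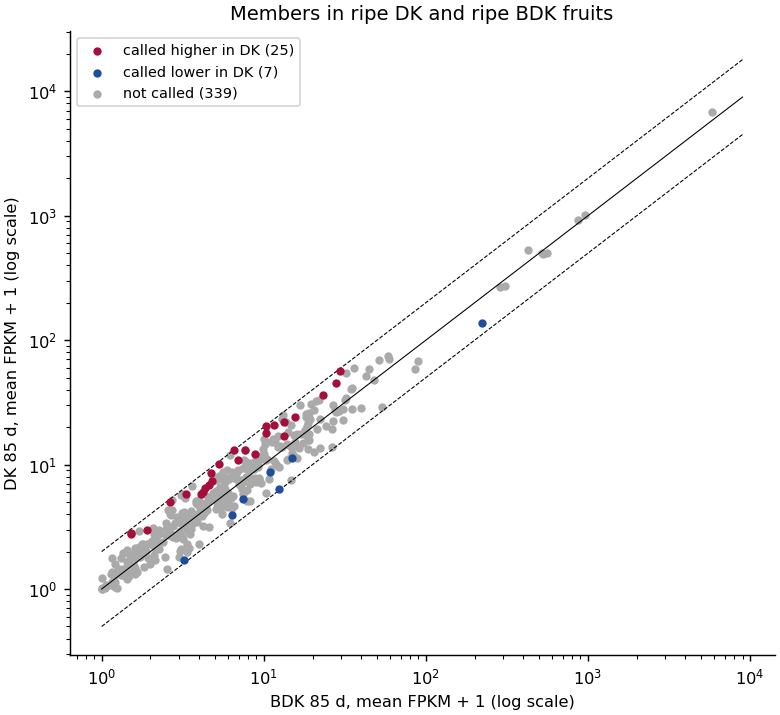
Mean FPKM + 1 in ripe DK (y) against ripe BDK (x), both on log axes, for the 371 members. The solid line marks equal means and the dashed lines ratios of 2 and 0.5, the bounds of the choice. The 25 members called higher in DK (red) and the 7 called lower (blue) lie on either side of the solid line and inside the dashed lines.

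Replicate 2 of ripe BDK held more of the members than the other ripe BDK libraries. It had the highest of the 3 values for 210 members, against 82 for replicate 1 and 73 for replicate 3. The median deviation of the members from their group's mean, on log2(FPKM + 1), was 0.15 in that library and -0.07 and -0.08 in the others. For all tested genes these deviations were 0.04, -0.01 and -0.02. In the DK libraries the members deviated by 0.04, 0.03 and -0.06. Without this library the median log2 difference between DK and ripe BDK was the 0.21 given above.

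Members at the upper bound for DK included c52543_g1, with 12.5, 11.5 and 12.01 FPKM in DK against 4.10, 6.94 and 5.60 FPKM in ripe BDK. BDK fruits had 72.8, 74.8 and 51.1 FPKM at 55 days and 21.2, 18.1 and 20.0 FPKM at 70 days, so that DK stood between the 70-day and the 85-day fruits of BDK. Gene c55636_g2 showed the same order, with 17.3, 23.0 and 18.1 FPKM in DK against 8.37, 10.9 and 8.79 FPKM in ripe BDK, and 108, 104 and 111 FPKM at 55 days and 61.4, 40.8 and 55.4 FPKM at 70 days in BDK. Their ratios of DK to BDK were 1.99 and 1.98 on mean FPKM + 1.

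At the lower bound, c47716_g1 had 6.39, 4.87 and 4.81 FPKM in DK against 10.8, 11.1 and 12.4 FPKM in ripe BDK. Its BDK libraries had 237, 238 and 226 FPKM at 55 days and 34.0, 41.0 and 43.2 FPKM at 70 days, so DK was below every BDK stage. Gene c50772_g1 had 6.80, 6.46 and 6.51 FPKM in DK against 9.26, 16.7 and 15.0 FPKM in ripe BDK, with 103, 127 and 91.9 FPKM at 55 days and 44.8, 20.9 and 28.2 FPKM at 70 days. Their ratios were 0.51 and 0.52.

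Most members were also lower in ripe DK than in BDK at 70 days. All DK libraries lay below all BDK libraries of 70 days for 363 members and below all those of 55 days for all 371, both of which the bounds nearly fix. Among all tested genes the shares were 34.1% for 70 days and 41.8% for 55 days. The 30 genes that met both step ratios with libraries apart but failed the DK bounds were at least 2 times higher in DK for 24 and at most 0.5 of BDK for 6. Of the 711 genes with a first fall as large (libraries apart) and a second step within 2-fold, 10 were at least 2 times higher in DK and 29 at most 0.5. Of the 317 genes with a second fall as large (libraries apart) and a first step within 2-fold, the numbers were 36 and 1. All these ratios share the ripe BDK libraries.

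The members' median level in BDK at 55 days was 75.2 FPKM. It was 53.3 FPKM for the genes with a first fall alone, 68.5 FPKM for those with a second fall alone and 49.5 FPKM for all 6056 genes of that level. The rule used the level at 55 days as the base of the fall, so nothing is read from these differences. Among the members the spread between libraries was wider in ripe fruits. The rule demanded BDK libraries that do not overlap between stages, which limits their spread, and the members' levels were low at ripeness. The part of either in these values was not tested. The members' median coefficient of variation was 17.2% in DK, and in BDK 13.5% at 55 days, 13.7% at 70 days and 26.8% at 85 days. For all genes of the level it was 7.93% in DK and 8.91%, 7.67% and 10.5% over the BDK stages, with much higher levels at ripeness (medians of 38.8 FPKM in DK and 38.6 FPKM in BDK). For the genes with a second fall alone it was 12.9% in DK and 10.9%, 11.9% and 23.5% over the BDK stages. For those with a first fall alone it was 10.6% in DK and 15.1%, 10.3% and 16.1%.

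The assembly clusters were not used by the rule. Of the 371 members 217 (58.5%) were the only gene of their cluster, as were 2929 (48.4%) of the 6056 genes of that level, so reads of these members were not divided within a cluster. Only 9 clusters held 2 members and none held more. The members' clusters hold 407 other genes, of which 255 were tested, and 101 of these (39.6%) were called lower in the first step, 62 (24.3%) in the second and 26 (10.2%) in both, to be set beside the 28.1%, 19.5% and 7.34% of all tested genes. Among the 70 of these genes with at least 25 FPKM in BDK at 55 days, 14 (20.0%) had a first-step ratio of at most 0.5 and 10 (14.3%) such a second-step ratio, where 25.6% and 13.2% of all 6056 genes of that level did. The other genes of these clusters are by definition not members and can share reads with them. The tested genes and the 6056 genes of that level both include the 371 members, which all meet both ratios. The shares are thus not of like sets, and nothing is read from their differences.

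Members at the edge of the choice differed little from genes left out. The lowest sum of mean FPKM and 1 at 55 days was 26.2, and the nearest gene left out had 25.8. The highest first-step ratio inside was 0.499 and the nearest outside 0.501. For the second step both values rounded to 0.5. The DK ratios just inside were 0.512 and 1.99, and those just outside 0.498 and 2.02. Scaling moved genes across these bounds: with trimmed-mean factors 292 of the 371 met the rule, and no other gene did.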

How the data were processed

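The authors deposited, per the file headers, 1 FPKM value per gene and library, to 2 decimals, for 119701 genes. No source used here names the assembler, aligner or annotation. Groups come from the sample titles, and days from the series' design text, matched to the stage numbers by their order. FPKM was used as deposited for the rule, levels and shares.

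For calls, log2(FPKM / factor + 1) of genes that reached 1 FPKM in 3 or more libraries was fitted with limma 3.58.1 in R 4.3.3 (12 libraries, 4 groups, no covariates, mean-variance trend). Factors were trimmed means of log ratios (30% of ratios and 5% of levels trimmed at each end). P-values were Benjamini-Hochberg adjusted over 23074 genes, and below 0.05 counts as called. The procedure was checked on simulated data with normal spread, without scaling and without the library split, so the check does not cover these. The members, groups compared and rule for names (lowest ratio in each step, highest level at 55 and 85 days, highest and lowest DK ratio without overlap, 2 each) were chosen with earlier results of these data known. The library set, and the share without the top member, were added after seeing the data. FPKM is relative, so a few abundant genes lower all others.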

Additional observations from a re-analysis of the deposited data

How the results depend on the processing

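The number of genes meeting the rule was 371, 350 to 381 when 1 library was left out, 272 to 292 under 3 scalings (none of them outside the 371), 410 with 0.1 added to each mean (338 of the 371) and 218 with 5 added (204 of the 371). The members' share of the summed FPKM, at 1.69% in DK and 18.0%, 3.83% and 1.57% in BDK at 55, 70 and 85 days, became 1.14%, 7.48%, 2.37% and 1.14% without each library's 50 most abundant genes and 0.91%, 14.0%, 2.68% and 0.90% without the most abundant member, by construction. Leaving out 1 library gave 1.46% to 1.85% in DK, and 17.0% to 19.1%, 3.60% to 4.01% and 1.42% to 1.77% in BDK.

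Called lower in the first step were 368 members, and 364 to 370 with 1 library left out, and in the second 362, and 351 to 364. No other setting moved either count by 1.5 times, 368 and 362 with the replicate block included. The 32 members called between DK and BDK were 7 with no filter, 19 with a pseudocount of 5, 3 with only the 2 groups in the fit, 1 with a 2-fold minimum and 16 with a term for the library set, and 10 to 56 when 1 library was left out. Over all tested genes 815 were called higher in DK and 704 lower. These became 211 and 146 with no filter (101724 tested), 736 and 687 with a pseudocount of 5, and 97 and 118 with only the 2 groups. With a 2-fold minimum they were 201 and 167, and with the library-set term 298 and 240. The cause was not tested. With the replicate block 24 members were called, beside 607 higher and 521 lower among all tested genes. Libraries of the same number in different groups had a median r of 0.02 over genes (-0.145 to 0.174), and others -0.01 (-0.213 to 0.25). These pairs share the same 12 libraries, and the library set crosses the numbers. The values therefore cannot tell whether the numbers pair libraries. The median log2 difference of 0.10 was 0.067 to 0.21 with 1 library left out and 0.23 against ripe BDK replicate 3 alone, and it was positive under all scalings and pseudocounts tried. The 18 step and DK ratios printed or used to name genes kept their sign under 3 scalings, 2 pseudocounts and each library left out, the settings run for them. These genes were chosen with libraries that do not overlap in the ratio concerned. Leaving out a library or changing the pseudocount therefore could not change a sign, and nothing is read from this. No depth is known, so counting error at low FPKM could not be given.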
